A study of Mus musculus with 4 samples.

Results

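The response of wild-type RAW264.7 cells to lipopolysaccharide (LPS) was described from 2 arrays, 1 of untreated cells and 1 of cells given LPS, out of 4 arrays in the study. RAW264.7 is a mouse macrophage cell line, and both of these samples are titled naive cells and given as wild type in genotype. The other 2 arrays held cells lacking Mfp2, the peroxisomal enzyme encoded by Hsd17b4, without and with LPS. Total RNA was labelled with Cy3 by a low-input amplification kit and hybridised to 1-colour Agilent mouse expression arrays, all on 1 slide; each condition had its own position there, so position and condition cannot be told apart. The LPS dose, its duration and the way of making the knockout are not stated in the labels.

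LPS is a component of the outer membrane of Gram-negative bacteria. Macrophages bind it through CD14 and the TLR4 and MD-2 receptor, which signals at the cell surface through MyD88 to NF-kB and MAP kinases, and from endosomes through TRIF to IRF3 and interferon beta. Secreted interferon then acts back on the cell through its receptor to switch on antiviral genes, while NF-kB target genes include cytokines, chemokines and the inhibitors that end the signal.

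Each array stood alone in its condition, so no p-value was computed and the spread between cultures is unknown. The only error measured was technical: probes spotted at least 3 times on an array had a pooled SD of 0.0525 log2 units untreated and 0.0560 with LPS, which gives an SD of 0.0768 for a difference of single spots. Each gene was represented by 1 probe, and its difference is log2 of the signal minus the array's 75th percentile. That percentile was 358 untreated and 323 with LPS. A fold is therefore the ratio of the 2 signals printed here after the LPS signal is multiplied by 1.11. "Higher" and "lower" below mean at least 2-fold with LPS against without. A gene well above background on 1 array only has a bound: its dim signal was raised, where needed, to the faintest signal that passed as well above background on that array, and its fold carries the words "at least". Levels were not compared between genes, since probes differ in brightness.

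Of 37008 genes on the array, 18808 were not well above background on either array, and 18200 were compared. Of these, 16087 were measured on both arrays, 987 only with LPS and 1126 only without. With LPS, 1768 genes (9.71%) were higher and 1562 (8.58%) lower, and these 2 shares are the background for every list below. Among genes measured on both arrays the median difference was 0.02, and the middle 50% lay between -0.38 and 0.35. Large increases outnumbered large decreases: 608 genes were at least 4-fold higher and 274 at least 4-fold lower, 250 against 29 passed 8-fold, 111 against 3 passed 16-fold, and 54 against 0 passed 32-fold. The split of calls depended on the scaling: 53.1% of called genes were higher here, but 37.0% (1314 higher, 2236 lower) when the arrays were centred on 7 spike-in control probes, which moved the median of all genes to -0.20. Differences are therefore relative to the bulk of the transcripts on these arrays.

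**Figure D1:**
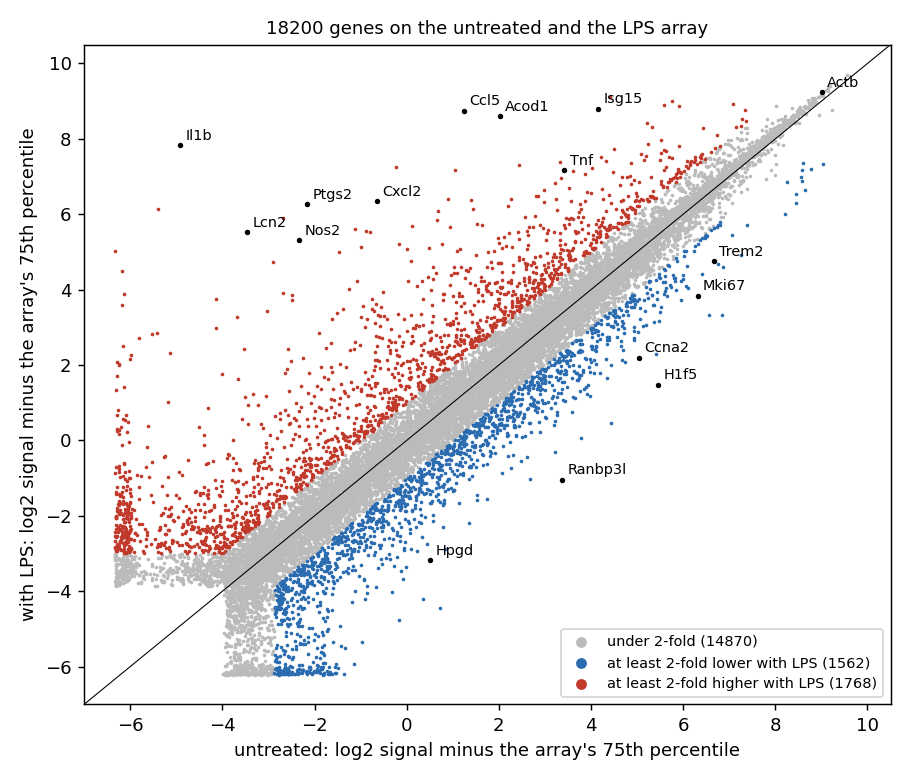
Each point is 1 of 18200 genes, with the untreated signal on the horizontal axis and the LPS signal on the vertical axis, both as log2 of the signal minus the array's 75th percentile (1 array each). The 1768 genes at least 2-fold higher (red) reach much farther from the diagonal than the 1562 lower ones (blue), and the bands along the left and lower edges are genes dim on 1 array.

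The cells carried the profile of macrophages. Of 12 macrophage markers, 11 were well above background, and only Mertk was not. Lyz2 (lysozyme) read 152815 untreated and 145580.0 with LPS, and Cd68 read 61713 and 61186. Adgre1 (F4/80) was 4.30-fold higher and Mpeg1 (perforin-2) 3.12-fold higher. Of 78 markers of 10 other cell types, 52 were below background on both arrays, among them Cd79a, Cd8a, Epcam, Col1a1 and Hba-a1. The summed signal of the 78 was 26042 untreated and 28027 with LPS, in which Siglech read 20759 and 20846. Of 6 T cell markers compared, 3 were higher, Cd3d among them: Lck read 847 and 2522, and Cd5 43.1 and 308, while Cd3g, Cd2, Zap70 and Cd8a were below background. The part of these few markers in the results was not tested. No reference gene reached 2-fold: Actb read 184661 and 194214, Gapdh 130678 and 144456, and Hprt 26674 and 22152. Hsd17b4 itself, the gene labelled as knocked out in the other cells, read 4482 and 2915, a log2 difference of -0.47. The Hsd17b4 signals of the cells labelled as lacking it were 2545 untreated and 1217 with LPS. Whether the knockout altered the part this probe reads is not given, so the probe does not check those labels.

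The most induced transcripts encoded cytokines, acute-phase proteins and inflammatory enzymes. Il1b, which encodes the fever-inducing cytokine interleukin-1 beta, went from 11.9, below the background limit, to 73763, at least 3658-fold higher (its other probes differed by 5.70 and 10.97; probe at chr2:129190347-129190406, mm9). Csf3 (G-CSF, the neutrophil growth factor) went from 8.48 to 22946, at least 1138-fold. Il1a went from 4.48 to 10431 and Il6 from 4.94 to 7238, both from below background. Lcn2, whose product binds bacterial siderophores and so withholds iron, went from 32.3 to 14810.2, 509-fold, the largest difference among the named genes measured on both arrays (its other probe differed by 6.92; probe at chr2:32240199-32240258, mm9). Hdc, the histamine-forming decarboxylase, was 380.3-fold higher at 55.9 against 19146, but its other probes gave log2 differences of only 2.98 and 4.29 against 8.57. Ptgs2, the inducible cyclooxygenase that starts prostaglandin synthesis, went from 80.1 to 24964, 346-fold (probe at chr1:151954744-151954803, mm9). Nos2, the inducible nitric oxide synthase, went from 71.0 to 12782, 199.8-fold (probe at chr11:78773567-78773626, mm9). Saa3 (serum amyloid A3) was 180.3-fold and Cfb (complement factor B) 124-fold higher; the other probe of Cfb differed by 4.65 against 6.96. Other genes with very large increases were Scimp, an adaptor of antigen-presenting cells (86.7-fold), Urah, a urate-pathway hydrolase (at least 238-fold), and Upp1, uridine phosphorylase (at least 193-fold).

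**Figure D2:**
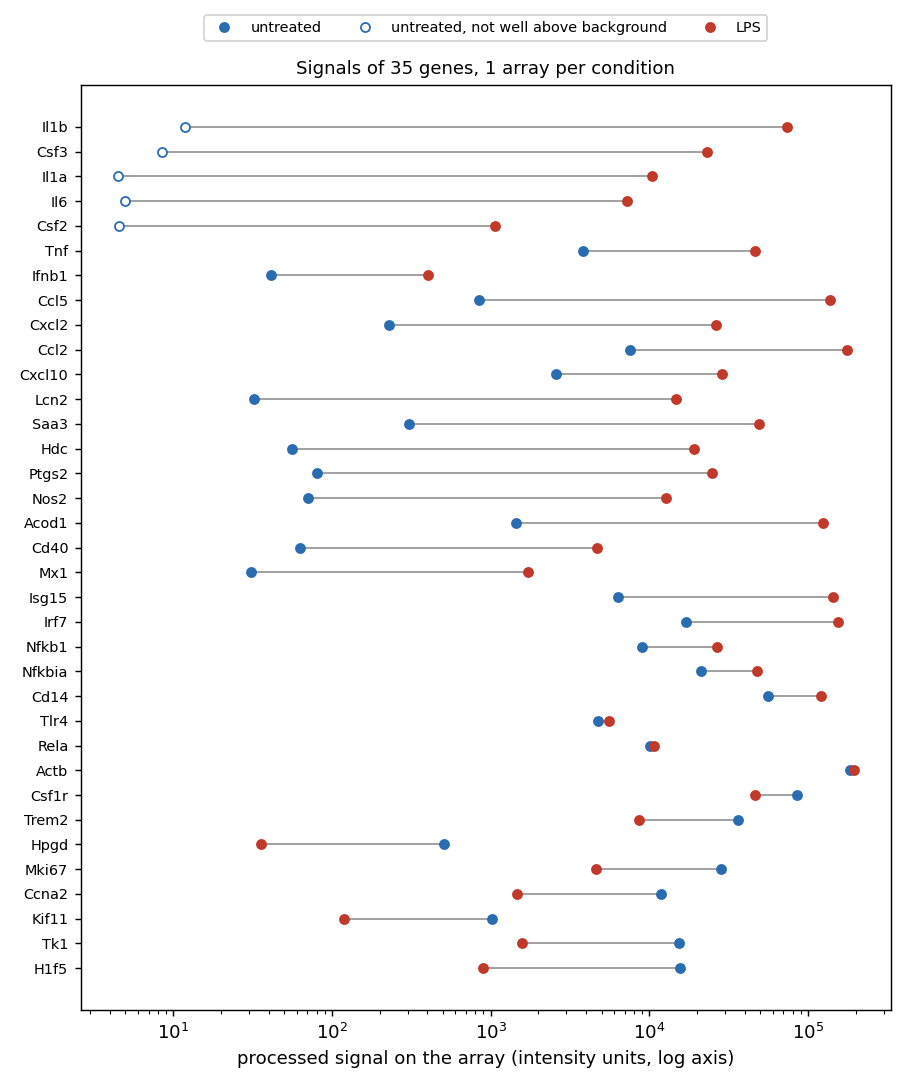
Processed signals of 35 genes on the untreated array (blue) and the LPS array (red), on a log axis in intensity units, with 1 array per condition and open circles where the signal was not well above background. Il1b runs from 11.9 to 73763, Tlr4, Rela and Actb barely separate, and the cell-cycle genes at the bottom lie lower with LPS.

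Of 8 LPS-sensing genes compared, 2 were higher and 0 lower. Tlr4 read 4745 and 5553, a difference of 0.38. Ly96, which encodes MD-2, read 6712 and 4229 (-0.52), and its other probe gave 0.91, so its direction is unsettled. Cd14, the co-receptor that hands LPS to TLR4, was 2.39-fold higher, from 55804 to 119986, with its other probe at a difference of 0.83. Casp4, which encodes caspase-11, the sensor of LPS in the cytosol, went from 1268 to 8523, 7.46-fold.

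Among 28 TLR adaptors and kinases, 8 were higher and 1 lower. The higher ones were Traf1 (6.97-fold), Ikbke (5.44-fold), Ripk2 (4.58-fold), Irak3 (3.99-fold), Ticam1 (3.51-fold), Peli1 (2.56-fold), Map3k8 (2.46-fold, other probe at a difference of 0.07) and Irak2 (2.44-fold). Ticam1 encodes TRIF, the adaptor of the interferon branch, and read 525 and 1661. Ticam2, which encodes TRAM, the partner that brings TRIF to TLR4, was the lower one, at 76.3 and 31.7. Irak3 encodes IRAK-M, a kinase-dead brake on the MyD88 complex. Myd88 differed by 0.91, Traf6 by 0.09, Irak4 by -0.56 and Irak1 by -0.65.

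Sensors of other microbial patterns were higher in 11 of 19 and lower in 0. The RNA sensors Ifih1 (MDA5), Ddx58 (RIG-I) and Dhx58 (LGP2) were higher by log2 differences of 3.91, 2.85 and 3.40. C-type lectin genes were higher too: Clec4n (Dectin-2) from 75.4 to 1465 and Clec4e (Mincle) from 4096 to 18893. Nod2, the muramyl dipeptide sensor, read 221 and 1276, and Tlr1 was 6.77-fold, Tlr6 3.69-fold and Tlr3 at least 6.06-fold higher. Tlr2, Tlr7, Tlr9 and Tlr13 differed by 0.07 to 0.19, and Cgas by -0.15.

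NF-kB genes and their inhibitors were higher in 8 of 11 and lower in 0. Nfkbiz, a nuclear inhibitor-like protein needed for Il6 induction, had the largest increase, from 226 to 3978 (19.5-fold). The precursor subunits Nfkb2 and Nfkb1 were 3.97- and 3.27-fold higher, and Rel 2.86-fold. Rela, the subunit held in the cytoplasm before stimulation, read 10160.4 and 10706 (0.23), and Relb differed by 0.33. The inhibitors Nfkbia, Nfkbib and Nfkbie were 2.50-, 3.20- and 2.36-fold higher, with Nfkbia going from 21225 to 47733.

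To show sequence near genes of this group, RefSeq promoter windows (250 bases before to 50 after a transcription start, GRCm38.p6) were searched on both strands, allowing overlapping matches. Windows were found for 10765 of the 18200 genes compared, 1114 of the higher and 999 of the lower genes, and a gene with several starts counts with each. A match to the NF-kB consensus was in 4.51% of all windows in the table, 5.10% of those of compared genes, 6.90% of those of higher genes and 4.87% of those of lower genes. It was in 7.11% of those of genes at least 8-fold higher. In the windows of the listed cytokines and chemokines it was in 12 of 57 (21.1%), against 3 of 35 (8.57%) in those of the mitosis genes and 3 of 38 (7.89%) in those of interferon-stimulated effectors. Of the 57 cytokine and chemokine windows, 13 held GAAANNGAA, 12 TGANTCA, 19 TATAAA and 15 CCAAT, motifs described below. Fewer held TTTGAA (8) and TGACGTCA (2). The stretches below, all upstream of the start and read 5′ to 3′ on the gene's strand, carry NF-kB consensus matches in capitals. Adjoining capitals are overlapping matches.
Nfkbia (chr12:55492655-55492688, minus strand): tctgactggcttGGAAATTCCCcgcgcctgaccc
Nfkb2 (chr19:46304686-46304736, plus strand): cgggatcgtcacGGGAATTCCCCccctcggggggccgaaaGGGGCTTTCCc
Cxcl2 (chr5:90903790-90903824, plus strand): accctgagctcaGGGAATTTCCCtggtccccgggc
Il6 (chr5:30013058-30013091, plus strand): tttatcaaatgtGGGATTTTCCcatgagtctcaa
Cxcl10 (chr5:92348971-92349060, minus strand): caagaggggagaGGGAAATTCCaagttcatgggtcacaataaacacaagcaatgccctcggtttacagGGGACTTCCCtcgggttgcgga

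The 5 genes shown span a wide range of increase: Cxcl2 was 128-fold higher, Il6 at least 359-fold, Cxcl10 12.5-fold, Nfkb2 3.97-fold and Nfkbia 2.50-fold. A match is a run of letters, and binding was not measured.

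Genes that dampen the signal were higher in 11 of 22 and lower in 1. Socs3, which blocks JAK signalling downstream of interleukin-6 family receptors, went from 668 to 27539, 45.8-fold. Cish was at least 76.4-fold, Socs1 5.11-fold and Socs2 at least 4.32-fold higher. Zfp36, which encodes tristetraprolin, the protein that marks Tnf and other AU-rich messages for decay, was 5.30-fold higher, and its relative Zfp36l2 was 2.50-fold lower. Tnfaip3 (A20, a ubiquitin editor) was 3.69-fold and Tnip1 2.64-fold higher. Of 10 MAP kinase phosphatases, 7 were higher: Dusp5 went from 234 to 3257 (15.5-fold), Dusp2 was 4.28-fold, Dusp16 3.62-fold and Dusp1 2.46-fold higher. Dusp3, Dusp7 and Dusp14 stayed within 2-fold.

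The AP-1 and immediate early group moved both ways, with 9 of 25 higher and 4 lower. Myc read 59.0 and 1192 (22.4-fold), with its other probe at a difference of 2.75 against 4.49. Ier3 was 16.2-fold, Maff 9.30-fold, Fosl1 6.48-fold and Atf3 6.24-fold higher. The lower members were Egr3 (7.46-fold), Klf4 (2.73-fold), Klf2 (2.48-fold) and Fos (2.23-fold), the last of which is known for a rise within the first hour of a stimulus. Fos read 2863 untreated and 1156 with LPS. The palindromic AP-1 site TGANTCA was in 9.48% of the windows of higher genes, 4.87% of those of lower genes, 5.61% of those of compared genes and 7.81% of all windows. For the CRE TGACGTCA the shares were 2.65%, 2.60%, 3.04% and 1.79%.

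Interferon beta and its targets rose together. Ifnb1 went from 41.3 to 402, 10.8-fold. Of the 23 interferon, IRF and STAT genes compared, 9 were higher and 0 lower: Irf7 went from 17153 to 155181 (a log2 difference of 3.33), and Stat2 was 4.94-fold higher. Irf3, the factor that is activated by phosphorylation, read 8491 and 7526. The receptor genes Ifnar1, Ifnar2, Ifngr1 and Ifngr2 lay between -0.86 and 0.49.

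Of 41 interferon-stimulated effectors compared, 37 were higher and 0 lower, with a median difference of 2.95 against 0.01 over all genes compared. Zbp1, a sensor of Z-form nucleic acid, went from 164 to 15807 (a log2 difference of 6.74), and Ifit3 from 206 to 14895 (80.3-fold). Mx1 was 61.7-fold, Isg20 69.9-fold, Rsad2 (viperin) 47.4-fold and Ifit1 39.4-fold higher. Isg15, the ubiquitin-like modifier, was already bright untreated and went from 6354 to 144149 (25.2-fold). Members without a call included Adar (0.99), Ifitm3 (0.99) and Ifi27l2a (0.34). Guanylate-binding proteins and IRG GTPases, which attack the vacuoles of intracellular microbes, were higher in 13 of 15: Gbp2 was at least 216-fold, Gbp3 88.7-fold, Igtp 9.84-fold and Irgm1 6.38-fold higher. Gbp5 was not among them on its brightest probe (412 and 408), although its other probe differed by 5.41.

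The motif of the interferon-stimulated response element was searched as GAAANNGAA, again on both strands. It was in 12.9% of the windows of higher genes, 23.9% of those of genes at least 8-fold higher, 7.55% of those of lower genes, 7.36% of those of compared genes and 8.56% of all windows. Among the listed interferon-stimulated effectors it was in 18 of 38 windows (47.4%). Among the listed cytokines and chemokines it was in 13 of 57 (22.8%), and among the mitosis genes in 2 of 35 (5.71%). The stretches below show it, with matches in capitals, upstream of 3 of these effectors and of Gbp2, from the guanylate-binding list (GRCm38.p6, 5′ to 3′ on the gene's strand); in Ifit1, Ifit3 and Gbp2 the letters shown are its reverse complement.
Ifit1 (chr19:34640768-34640825, plus strand): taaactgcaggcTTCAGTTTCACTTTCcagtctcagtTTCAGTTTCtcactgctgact
Ifit3 (chr19:34583362-34583447, plus strand): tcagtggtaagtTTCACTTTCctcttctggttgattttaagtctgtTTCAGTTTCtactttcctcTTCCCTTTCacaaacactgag
Isg15 (chr4:156200864-156200908, minus strand): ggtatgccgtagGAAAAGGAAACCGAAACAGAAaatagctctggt
Gbp2 (chr3:142620593-142620625, plus strand): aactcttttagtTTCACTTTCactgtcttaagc

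**Figure D3:**
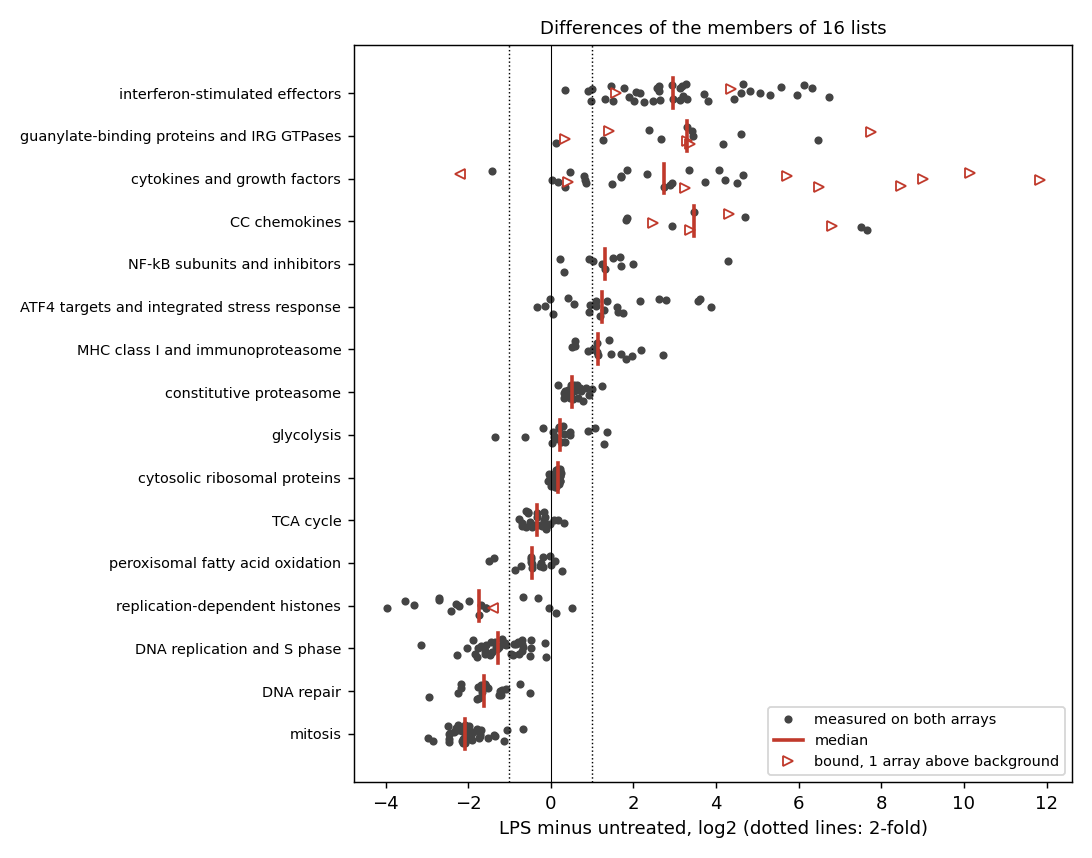
Each point is 1 gene of 1 of 16 lists, placed by its difference with LPS against without on the log2 scale, with triangles for bounds and a red bar at the list median. Interferon-stimulated effectors sit right of 0 with a median of 2.95, ribosomal proteins are packed near 0, and the mitosis list sits left with a median of -2.07.

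Among cytokines and growth factors, 21 of 31 were higher and 2 lower. Besides the interleukin-1 genes, Il6 and Csf3, Tnf went from 3830.3 to 46198 (13.4-fold; probe at chr17:35336795-35336854, mm9). Csf2 (GM-CSF) went from 4.58 to 1061 (at least 52.6-fold) and Csf1 from 31.4 to 715 (25.3-fold). Il1rn, the natural antagonist of interleukin-1, went from 3567 to 53802 (16.7-fold). Edn1 (endothelin-1) was at least 90.5-fold, Tnfsf15 22.8-fold, Osm 18.7-fold, Il27 10.2-fold and Il18 6.64-fold higher. Igf1 was 2.67-fold lower, with its other probe at a difference of 0.09, and Ereg at least 4.62-fold lower. Il10, Il12a, Il12b, Il19 and Il23a were below background on both arrays. Mif, made constitutively, read 112948 and 115360.0.

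All 11 CC chemokines compared were higher, 7 of them measured on both arrays. Ccl5 (RANTES) went from 847 to 138456 (181-fold; probe at chr11:83339296-83339355, mm9) and Ccl7 from 47.6 to 8627 (201-fold). Ccl2, the main monocyte attractant, went from 7569 to 177323 (26.0-fold), and Ccl17 was at least 113-fold higher. Ccl3, Ccl4 and Ccl9 were bright before LPS and were 3.55-, 7.70- and 3.58-fold higher. Of 8 CXC and CX3C chemokines, 4 were higher. Cxcl2, a neutrophil attractant, went from 228 to 26329 and Cxcl10 from 2569.9 to 28842, while Cxcl1, Cxcl5 and Cxcl9 were below background. Cxcl11 read 84442 and 81234, and its other probe differed by -1.27.

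Receptors for chemoattractants were higher in 7 of 13 and lower in 2. The formyl peptide receptors Fpr2 and Fpr1 were at least 127-fold and at least 23.2-fold higher, and the complement receptors C5ar1 and C3ar1 12.3- and 4.27-fold. Cx3cr1, the fractalkine receptor, fell from 18974 to 5401 (3.17-fold lower), and Cxcr3 was 2.46-fold lower. Of 25 cytokine receptors, 9 were higher and 2 lower. Tnfrsf1b (TNF receptor 2) went from 181 to 11375 (69.9-fold), whereas Tnfrsf1a differed by 0.66. Il6ra was 2.29-fold lower, and Csf1r, the receptor for the growth factor that sustains macrophages, read 85811 and 46555 (-0.73).

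Enzymes of nitric oxide, arginine and itaconate metabolism were higher in 8 of 13 and lower in 0. Acod1, which makes itaconate from the TCA cycle intermediate cis-aconitate, went from 1451 to 125285 (95.8-fold; probe at chr14:103455171-103455231, mm9). Ass1, which rebuilds arginine from citrulline, was 16.5-fold higher, and Gch1, the first enzyme of the nitric oxide synthase cofactor tetrahydrobiopterin, 12.3-fold. Odc1 and Sat1 of polyamine metabolism were 4.35- and 4.78-fold higher. Arg2 was at least 7.65-fold higher, and Arg1 was below background. Of 9 NADPH oxidase subunits and superoxide dismutases, only the mitochondrial Sod2 was higher (3.03-fold), while Cybb differed by 0.96 and Sod1 by -0.16.

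Eicosanoid genes split. Of 18 compared, 2 were higher, Ptgs2 and the prostacyclin receptor Ptgir (13.3-fold), and 4 were lower. Hpgd, which inactivates prostaglandins, fell from 506 to 35.8 (12.7-fold lower). Alox5, the first enzyme of leukotriene synthesis, fell from 1854 to 349.7 (4.78-fold lower), Ltc4s was 2.51-fold lower, and the constitutive cyclooxygenase Ptgs1 4.14-fold lower. Ptges, the inducible prostaglandin E synthase, read 12644 and 11407 on its brightest probe, while its other probes differed by 2.48 and 3.25; the latter read 36.0 and 309.

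Acute phase and complement genes were higher in 7 of 12 and lower in 2. Beside Lcn2, Saa3, Cfb and Hdc, Slpi was 29.6-fold, C3 3.21-fold and Cp 3.12-fold higher. Hp (haptoglobin) was at least 2.97-fold lower. Inflammasome genes were higher in 6 of 14, including Nlrp3 (5.29-fold), Casp1 (3.81-fold) and Gsdmd (2.36-fold), and P2rx7, the ATP-gated channel that triggers NLRP3, was 2.66-fold lower. Pycard, the adaptor ASC, was dim at 99.4 and 150.0.

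Genes for costimulation and adhesion were higher in 10 of 16 and lower in 1. Cd40 went from 63.4 to 4698 (82.3-fold), Cd274 (PD-L1) was 9.20-fold and Cd44 4.64-fold higher, and the integrin gene Itga4 was 3.97-fold lower. Cd80 read 2756 and 2507 on its brightest probe, and its other probes differed by 2.14 to 2.65. MHC class I presentation genes were higher in 11 of 15 and lower in 0, but in 7 with spike-in centring or normexp background correction. Tap1, the peptide transporter, was 6.58-fold higher, Nlrc5, the class I transactivator, 4.52-fold, and the immunoproteasome subunits Psmb8, Psmb9 and Psmb10 2.64-, 2.73- and 3.24-fold. Of 7 class II genes, 0 were called either way, with differences from -0.90 (Ifi30) to 0.88 (H2-Ab1, a bound), and Ciita and H2-Aa were below background.

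Scavenger and Fc receptor genes moved both ways, with 8 of 20 higher and 3 lower. Axl was 14.8-fold, Fcgr4 10.1-fold, Fcgr2b 9.52-fold, Msr1 5.29-fold and Fcgr1 4.01-fold higher. Trem2, a lipid receptor of tissue macrophages, fell from 36187 to 8670.2 (3.76-fold lower), and Gas6, the ligand of Axl, was 4.49-fold lower. Trem1 was 2.44-fold lower on its brightest probe, but its other probe gave 0.90 and the mean of its probes was 0.80. Among proteases and inhibitors, 8 of 19 were higher, led by Serpinb2 (at least 67.5-fold), Timp1 (31.5-fold) and Mmp9 (21.8-fold), with Plaur at 8.41-fold.

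Of the 13 markers of alternative activation, 7 could be compared, 3 higher and 3 lower. Ccl17, Ccl24 and Il4ra were higher, and Pparg, Ppargc1b and Klf4 were 3.49-, 2.93- and 2.73-fold lower. Arg1, Mrc1, Retnla and Chil3 were below background. Lineage factors were also balanced, with 4 of 18 higher and 4 lower. Cebpd was 5.65-fold, Cebpb 2.43-fold and Irf8 2.47-fold higher, and Mef2c was 3.55-fold and Cebpa 2.62-fold lower. Spi1, which encodes PU.1, read 1159 and 1247.

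Targets of ATF4, the factor of the integrated stress response, were higher in 14 of 22 and lower in 0. Trib3 went from 417 to 5519.9 (14.7-fold), Chac1 was 11.9-fold higher, and Slc7a11, the cystine transporter, 12.2-fold. Ddit3 (CHOP) was 6.89-fold and Ddit4 6.20-fold higher, and Atf4 itself 2.13-fold. The serine synthesis genes Phgdh and Psat1 differed by -0.33 and -0.03. Only 3 of 20 endoplasmic reticulum chaperone genes were higher, Dnajb9, Herpud1 and Syvn1, and Hspa5 differed by 0.81. Of 18 NRF2 targets and metallothioneins, 3 were higher: Hmox1 (5.17-fold), Srxn1 (2.98-fold) and Mt2 (2.66-fold). Sqstm1 (p62) was 4.90-fold higher, and the iron and manganese transporter Slc11a1 of the phagosome 4.86-fold.

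Few genes of central carbon metabolism were called. Of 20 glycolysis genes, 3 were higher, Hk3 (2.57-fold), Slc2a6 (2.42-fold) and Hk2 (2.08-fold), and Pfkm was 2.54-fold lower. Bright glycolytic genes such as Pkm (120819 and 117438) and Ldha (95882 and 92910.3) were nearly level. No gene was called in either direction among 24 of the TCA cycle, 29 of the respiratory chain or 7 of the pentose phosphate pathway. The TCA cycle had a median of -0.32 with 21 of 24 differences below 0, and -0.54 with spike-in centring. Idh1 differed by -0.34 and Idh3a by -0.71. Hypoxia genes were called in 3 of 15: Ddit4 and P4ha1 higher, and Pdk1, which shuts pyruvate out of the TCA cycle, 2.67-fold lower; with spike-in centring 1 was higher and 4 were lower.

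Lipid genes moved in both directions. Of 16 PPAR targets and lipid storage genes, 7 were higher and 2 lower. Fabp4, a fatty acid carrier, went from 115 to 1945 (18.8-fold), and Gpat3 was 8.76-fold, Hilpda 4.65-fold and the droplet coat gene Plin2 3.08-fold higher, while Angptl4 was 6.20-fold lower. In fatty acid synthesis 2 of 18 were lower, Elovl6 (2.84-fold) and Scd2 (39628 and 17828), and none were higher; with spike-in centring 5 were lower. In mitochondrial fatty acid oxidation 2 of 17 were lower, Hadh (2.34-fold) and Cpt1a (2.25-fold), and 14 of 17 differences were below 0. In peroxisomal fatty acid oxidation, the pathway of the protein that the other cells are labelled as lacking, 2 of 17 were lower. These were Hacl1 (2.82-fold) and Acox3 (2.57-fold). The other probes of Acox3 ranged from -0.50 to 0.20, and the list median was -0.46. The shares lower were 11.1% in fatty acid synthesis and 11.8% in both oxidation lists, close to the 8.58% of all genes. Of 27 cholesterol genes, 2 (7.41%) were higher, among them Npc2 (3.03-fold), which moves cholesterol out of lysosomes, and 1 (3.70%) was lower. Both shares are below those of all genes. Of 12 genes listed for sterol efflux, 1 was higher, the cholesterol exporter Abca1 (5.50-fold), and 1 lower, Apoe (2.11-fold). Each share was 8.33%, near those of all genes, and under normexp 0 were lower.

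Ribosomal protein genes barely differed: 39 differences lay between -0.07 and 0.24, and 0 were called. Their median of 0.16 turned to -0.05 with spike-in centring. All 30 constitutive proteasome genes lay above 0, with a median of 0.51, and 1 was higher, Psma6 (2.38-fold); with spike-in centring 29 of 30 lay above 0. Lysosome and autophagy genes were mostly level. Exceptions were the v-ATPase subunit Atp6v0a1 (3.98-fold higher) and, beside Sqstm1, Wipi1 (2.19-fold lower).

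Several smaller lists held both directions. Of 11 purinergic and adenosine signalling genes, 6 were higher and 2 lower: the adenosine receptor genes Adora2a (at least 5.07-fold), Adora2b (4.44-fold) and Adora3 (5.26-fold) were higher, and Ada, which removes adenosine, was 3.37-fold lower. Of 23 sphingolipid genes, 4 were higher, among them the sphingosine kinase Sphk1 (at least 6.36-fold), and 2 were lower, Cerk (2.14-fold) and S1pr1 (at least 2.15-fold); under spike-in centring or normexp 2 were higher. Of 19 apoptosis regulators, 3 were higher and 2 lower, against 9.71% and 8.58% of all genes. The protective Bcl2a1d (5.42-fold), Cflar (3.98-fold) and Bcl2l1 (4.60-fold) were higher, and the BH3-only genes Bmf (4.83-fold) and Pmaip1 (2.45-fold) lower. Another BH3-only gene, Bcl2l11, went the other way without a call, at 0.66, and its other probes differed by 1.06 to 2.41. Of 14 clock genes, Arntl, Per1 and Ciart were higher and Per3 and Dbp lower, with 0 higher under spike-in centring. Of 13 iron-handling genes, 3 were higher, including the exporter Slc40a1 (2.57-fold), and Hfe was 2.34-fold lower; under normexp 1 was higher.

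Osteoclast genes, which RAW264.7 cells can switch on when they fuse, were higher in 4 of 15 and lower in 0. The fusion genes Dcstamp (3.12-fold) and Ocstamp (3.06-fold) were among the higher ones. Nfatc1 was the lowest member at -0.85, with its other probe at -1.57. By the mean of a gene's probes 1 member was lower, and with spike-in centring 2 were. Among 14 Ly6 and membrane antigen genes, Ms4a4b, Ms4a6b, Ms4a6c and Ms4a6d were higher and Cd81 lower. Of 18 tRNA synthetases, Nars (2.05-fold) and Sars (2.25-fold) passed 2-fold, a share near that of all genes, and 0 did with quantile normalization, spike-in centring, normexp or the deposited values. Of 16 heat shock genes, Hspa1b was 2.25-fold higher, and of 30 ribosome biogenesis genes 0 were called.

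**Figure D4:**
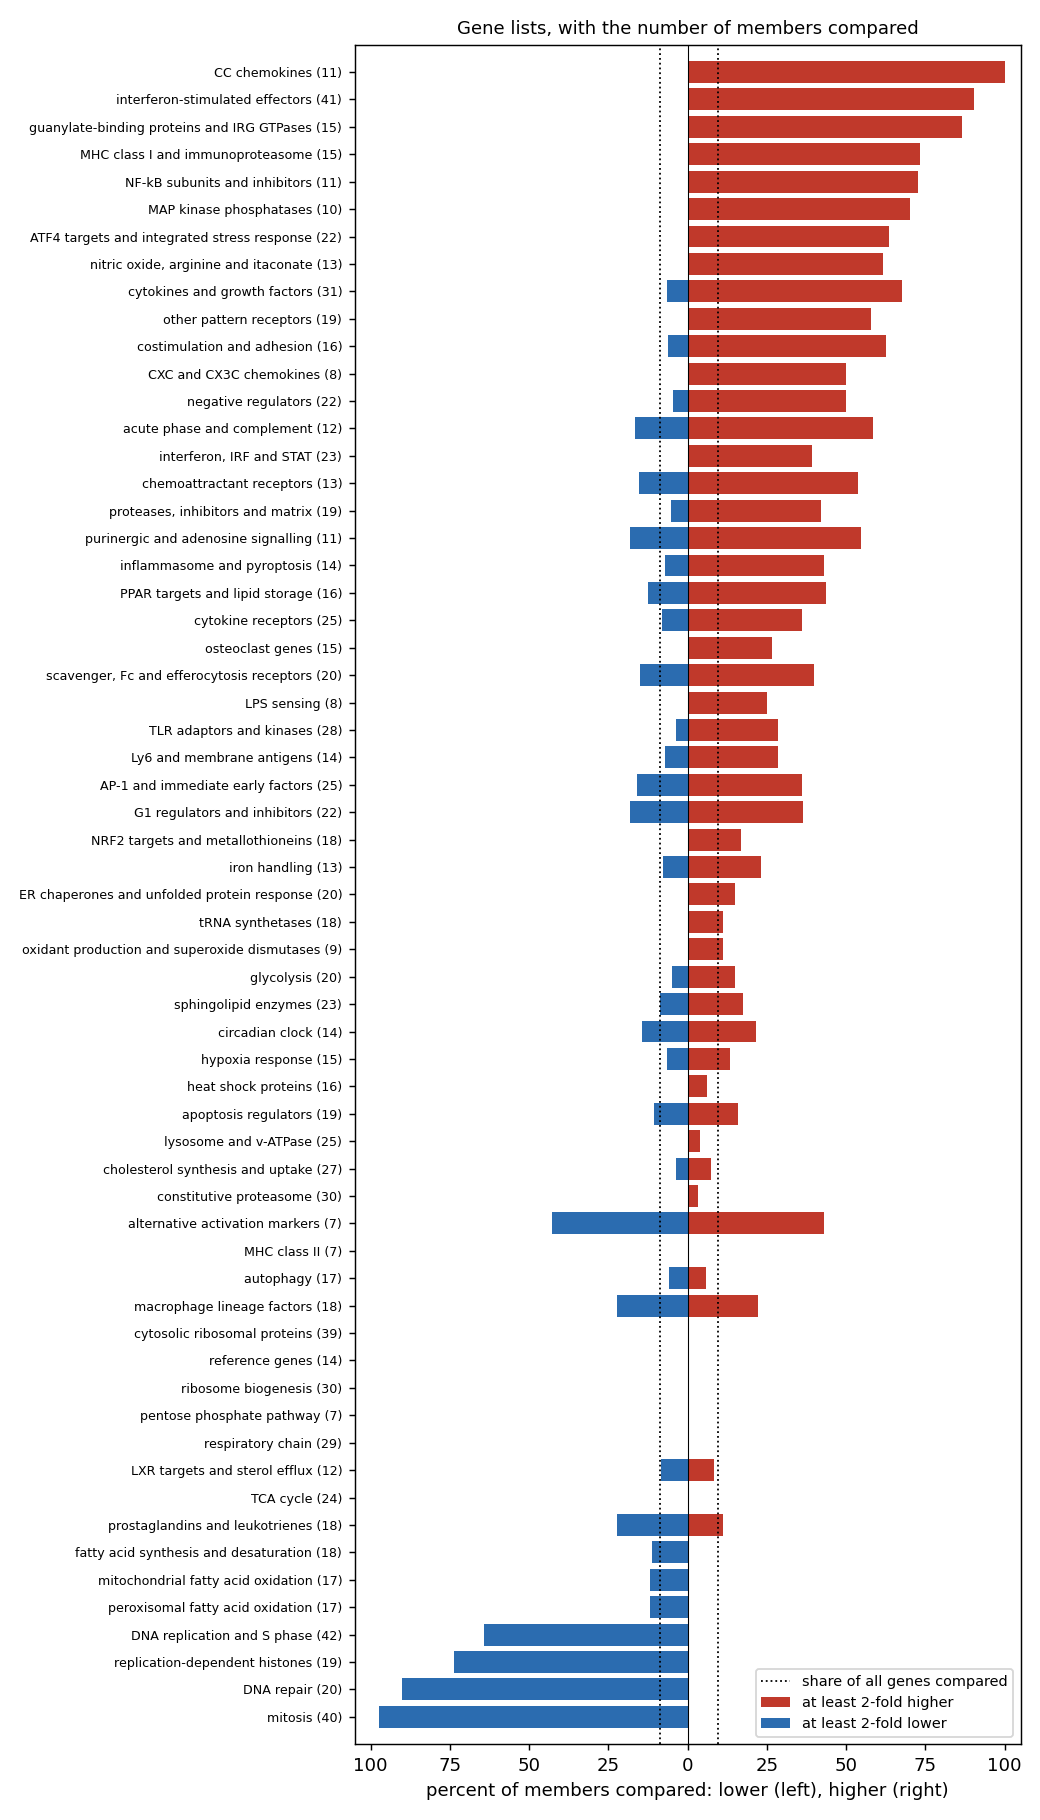
Bars give, for each of 61 gene lists, the percent of compared members at least 2-fold higher (right) or lower (left) with LPS, with the number compared in brackets and dotted lines at the shares of all genes (9.71% and 8.58%). The CC chemokine bar reaches 100% on the right and the mitosis bar 97.5% on the left.

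Of 40 mitosis genes, 39 were lower and 0 higher, with a median of -2.07. Kif11, the spindle motor Eg5, fell from 1028 to 118 (7.82-fold lower), and Ccna2 (cyclin A2) from 11794 to 1472 (7.22-fold lower). Mki67, the proliferation marker Ki-67, fell from 28459 to 4631 (5.54-fold lower). Ccnb1 (cyclin B1), Plk1 and Aurkb were 4.92-, 4.69- and 5.46-fold lower, and Foxm1, the transcription factor of G2 and mitosis genes, 5.03-fold. Pttg1 (securin) was the only member within 2-fold, at -0.68.

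Genes of DNA replication were lower in 27 of 42 and higher in 0, with a median of -1.27. Tk1, the S-phase thymidine kinase, fell from 15283 to 1572 (8.76-fold lower), and E2f8 and E2f7, repressors of the cycle, were 4.83- and 4.10-fold lower, although the other probes of E2f7 ranged from -1.18 to 0.24. Rrm2, the ribonucleotide reductase subunit, was 2.99-fold lower. Some members changed less, among them the licensing genes Orc1 (-0.11), Cdt1 (-0.48) and Mcm3 (-0.69), and also Pcna (-0.51). Of 20 DNA repair genes, 18 were lower, among them Neil3 (7.65-fold), Fanci (4.75-fold) and Brca2 (4.51-fold). Replication-dependent histone genes, made in S phase, were lower in 14 of 19: the linker histone H1f5 fell from 15714 to 901 (15.7-fold lower) and H2ac4 from 41388 to 3222 (11.6-fold lower). Histone genes are near copies of each other, so their probes may share signal.

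The regulators of G1 were mixed, with 8 of 22 higher (5 by the mean of a gene's probes) and 4 lower. Ccnd2 (cyclin D2) went from below background to 1100.5 (at least 54.6-fold), and the stress gene Gadd45b went from 816 to 7859. Cdkn1a, the p21 inhibitor, read 6138 and 12875 (2.33-fold higher), but its other probes ranged from -1.49 to 0.61. Gadd45a was 7.14-fold higher on 1 probe, its other probe gave -1.87, and the mean of its probes was -0.58. Cdkn2c was 3.84-fold and Rbl2 3.07-fold lower, while Ccnd1 differed by -0.36.

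Many mitosis promoters hold the cell cycle homology region TTTGAA and the CCAAT box bound by NF-Y. In the listed mitosis genes, TTTGAA was in 25 of 35 windows (71.4%), against 21.0% of the windows of all lower genes, 13.4% of those of higher genes and 13.3% of those of compared genes. CCAAT was also in 25 of 35, against 45.2%, 35.3% and 38.0%. The interferon-stimulated effectors held TTTGAA in 10 of 38 windows (26.3%) and CCAAT in 14 (36.8%). For the DNA replication genes the counts were 7 of 42 (16.7%) and 25 of 42 (59.5%). These are short motifs, found in 17.9% and 37.4% of all windows in the table. The stretches below are upstream of 4 lower genes (GRCm38.p6, 5′ to 3′ on the gene's strand); capitals mark CCAAT for Ccnb2 and Aurka and TTTGAA for Cdc20 and Mki67, on either strand.
Ccnb2 (chr9:70421559-70421653, minus strand): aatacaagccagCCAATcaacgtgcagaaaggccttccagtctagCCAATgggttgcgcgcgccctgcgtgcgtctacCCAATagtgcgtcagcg
Aurka (chr2:172370573-172370633, minus strand): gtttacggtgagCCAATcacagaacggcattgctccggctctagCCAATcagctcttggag
Cdc20 (chr4:118437344-118437373, minus strand): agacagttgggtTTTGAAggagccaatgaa
Mki67 (chr7:135716460-135716507, minus strand): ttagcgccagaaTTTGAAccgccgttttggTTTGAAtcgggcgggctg

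Ccnb2 fell from 23849 untreated to 5528 with LPS, Aurka from 22264 to 6102 and Cdc20 from 22841 to 6272. The TATA box TATAAA was in 12.5% of the windows of higher genes, 20.3% of those of genes at least 8-fold higher, 9.34% of those of lower genes, 8.39% of those of compared genes and 13.6% of all windows.

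Among genes with a symbol, large decreases outside these lists were in genes of several kinds. Ranbp3l, which exports Smad proteins from the nucleus, fell from 3715 to 157 (21.4-fold lower), the largest decrease measured on both arrays. Neurl1b, a ubiquitin ligase of the Notch pathway, fell from 4949.6 to 336 (13.3-fold lower). Ankle1, a nuclease, fell from 2273 to 158. Psrc1, a spindle protein, was 11.6-fold lower, Deptor, an inhibitor of mTOR, 10.2-fold and the sialyltransferase gene St6gal1 10.1-fold. Cd101 went from 460.1 to below background (at least 18.8-fold lower), and Dgkg (diacylglycerol kinase gamma) went from 318 to below background.

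The knockout cells had their own untreated and LPS arrays, so the 2 pairs share no array. In the knockout pair 2027 of 18388 genes (11.0%) were higher with LPS and 2294 (12.5%) lower. Among 17113 genes compared in both pairs, 1271 were higher in both, which is 80.0% of the higher genes of wild type and 66.9% of those of the knockout. Another 1103 were lower in both, 78.8% and 52.6% of the respective lists, and 9 genes in each direction had opposite calls. The cytokine list had a median of 2.73 in wild type and 3.75 in the knockout, CC chemokines 3.48 and 3.85, and interferon-stimulated effectors 2.95 and 2.14. The mitosis list had a median of -2.07 in wild type and -1.23 in the knockout, with 39 and 27 of 40 genes lower. Tnf, for example, differed by 3.74 in wild type and 5.24 in the knockout, whereas Oasl2 differed by 5.07 and 2.50. Il6 differed by at least 8.49 and at least 10.76, 2 bounds that cannot be ranked. A difference also depends on the untreated signal. Zbp1 read 164 untreated in wild type and 415 in the knockout, and 15807 and 13557 with LPS. Tgtp2, of the guanylate-binding list, read 38.4 and 39.0 untreated, and 620 and 155 with LPS. With 1 array per condition these differences between the pairs were not tested.

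**Figure D5:**
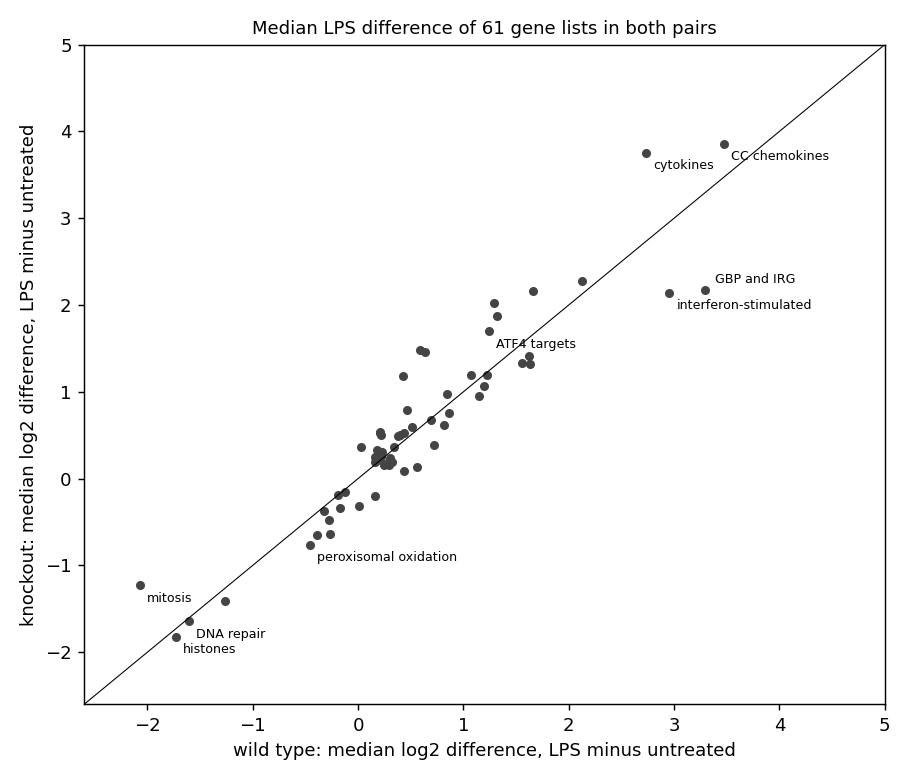
Each point is 1 of 61 gene lists, placed by its median log2 difference with LPS against without in wild-type cells (horizontal) and knockout cells (vertical), with 1 array per condition and the line of equality. Interferon-stimulated effectors lie below the line at 2.95 and 2.14, and mitosis lies above it at -2.07 and -1.23.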

How the data were processed

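RNA of 4 samples was measured on 1-colour Agilent arrays, and the 2 wild-type arrays carry the comparison. The deposited values are scanner intensity values: per the file headers, the authors' files were made with Feature Extraction 10.7.1.1, which subtracts background to give the processed signal, while the submitters' processing notes name version 9.5.1.1. The deposited series table, whose values are linear, was used as an alternative after taking log2. Between 56544 and 56578 of its 56605 probes per array lay within 0.01 log2 units of a quantile normalization of the linear probe means. Its unit is not stated by the authors.

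Control and outlier spots were left out, spots of a probe were averaged, and log2 signals were reduced by the array's 75th percentile over probes. A gene took its brightest probe above background. Probe positions are those of the array's annotation (mm9). Between 47.4% and 49.7% of spots per array were well above background and 0 were saturated, and the number of arrays limits the precision. The calls were tested on simulated data, which held only spot noise and changes planted beyond 2-fold. That test cannot show the error between cultures. Python 3.11.15, numpy 2.4.6, pandas 2.3.3, matplotlib 3.10.9, R 4.3.3 and limma 3.58.1 were used.

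Named genes were, among genes with a symbol, the 15 measured genes with the largest change each way that also passed 2-fold under normexp and quantile normalization, the 10 with the largest bounds each way, up to 6 higher and 4 lower per list, and key genes listed by name. Others were named after their values were seen. The key genes, lists and comparisons were chosen with earlier results of these data known. Some genes that the rule names are not reported here.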

Additional observations from a re-analysis of the deposited data

Results flagged for a closer look

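Id3, a transcription inhibitor of the macrophage lineage list, moved in opposite directions in the 2 pairs. In wild-type cells its signal fell from 2354 to 969, a log2 difference of -1.13. In the knockout cells it went from 285 to 1593, a log2 difference of 2.77. With 1 array per condition the difference was not tested.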

How the results depend on the processing

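The counts depended most on how dim probes and the threshold were treated. With normexp background correction 1062 genes were higher and 962 lower, without a filter on dim probes 3223 and 3026, at a 1.5-fold threshold 3219 and 3186, and at 4-fold 608 and 274. Quantile normalization gave 1715 and 1629, centring on the median 1848 and 1498, the authors' deposited values 1707 and 1628, the mean of a gene's probes 1756 and 1553, genes above background on both arrays 1330 and 1243, and the percentile over spots, chosen after seeing the data, 1837 and 1510. Among the 529 named genes, changes of sign were counted only for those past 2-fold. With the mean of a gene's probes 2 of these changed sign: Gadd45a from 2.84 to -0.58 and Trem1 from -1.29 to 0.80. No paired analysis was possible because each group has 1 array and the labels give no shared replicate numbers, and leaving out a replicate was not possible for the same reason.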

Other observations

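Probes of a gene did not always move together. Of 5658 genes with at least 2 measured probes, 1250 had a probe that differed by 2-fold or more, 470 of these had every probe past 2-fold in the same direction, and 10 had probes past it in opposite directions. Among listed genes without a call, 25 had another probe at least 2-fold higher, such as Mt1 (metallothionein) at 0.51 against 1.86. Another 16 had a probe at least 2-fold lower, such as Cyld, a deubiquitinase that restrains NF-kB signalling, at 0.14 against -2.10.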
